A study of Mus musculus with 14 samples.

Results

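The levels of 9 transcription factor genes that are known for naive, memory and stem-like T cells were examined, namely *Tcf7*, *Lef1*, *Bach2*, *Klf2*, *Foxo1*, *Satb1*, *Myb*, *Id3* and *Bcl11b*. They were chosen by name, and all 9 of 9 had a value in each of the 14 libraries, among 31148 genes with a value in the series. RNA-Seq had been performed on activated CD4+ T cells of C57BL/6 mice in 2 experiments. In the first, naive (by the study's surface marker gate) CD4+ T cells were sorted, cultured for 3 days with anti-CD3/anti-CD28 and rhIL-2 but no polarizing cytokines, and 4 wild-type (WT) samples were compared with 4 HDAC1f/f HDAC2f/+ CD4-cre+ samples (HDAC1cKO-HDAC2HET), which lose both *Hdac1* alleles and keep a single *Hdac2* allele. In the second, the labels name 3 WT and 3 HDAC1f/f CD4-cre+ samples (HDAC1cKO) from Th0 cultures that had also been exposed to anti-CD3. These cultures had been restimulated for 12 hours after 3 days of culture.

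The mice of the first experiment were 6 to 12 weeks old, and ages for the second are not given in the sources used here. Cre was driven by *Cd4* regulatory sequences, so that the alleles are lost in the thymus and the mature cells have been without them since then, also in the CD8+ lineage. The mutants thus compare cells with a history of deletion and not acute loss. The labels give the controls as wild type and name no floxed allele or Cre for them. The source tissue is given as spleen in the labels, and as spleen and lymph nodes in the methods.

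The 9 genes act at different steps. TCF1 (encoded by *Tcf7*) and LEF1 bind the same DNA sequence through an HMG box, recruit β-catenin or TLE corepressors and uphold the self-renewing state of memory T cells. FOXO1 is kept out of the nucleus by AKT signaling when the T cell receptor is engaged, and in resting cells it drives *Klf2*, *Il7r* and *Ccr7*, the genes of naive cell survival and homing. KLF2 restrains proliferation and drives *S1pr1*, the receptor for egress from lymph nodes. BACH2 pairs with small MAF proteins and represses effector genes at AP-1 sites. SATB1 is a chromatin organizer of the T lineage, MYB favors stem-like memory cells, BCL11B keeps T lineage identity, and ID3 captures E proteins.

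Levels are in FPKM, that is fragments divided by transcript length in kilobases and by the size of the library, a scale that allows genes of different length to be set side by side. Fragment numbers estimated from the confidence bounds of low genes were roughly 20900000 to 48700000 per library, lowest in HDAC1cKO-HDAC2HET replicate 3 and highest in replicate 4 of the same group. *Hdac1* was at 72.3 to 81.1 FPKM in the 7 WT samples and at 6.65 to 12.1 FPKM in the 7 mutant samples. *Hdac2* was at 34.0 to 37.0 FPKM in HDAC1cKO-HDAC2HET against 58.2 to 60.3 FPKM in the WT samples of that experiment. The defining T cell markers (*Cd3e*, *Cd3d*, *Cd3g*, *Cd4*, *Cd28*, *Cd5* and *Lck*) were expressed in all libraries, with a sum of 1112 to 1589 FPKM. In the first experiment this sum was 1112 to 1182 FPKM in HDAC1cKO-HDAC2HET and 1456 to 1589 FPKM in WT samples, and the sum of the CD8 markers was 11.7 to 15.2 against 3.28 to 5.96 FPKM. The CD8 sum was almost all *Cd8b1* (11.4 to 14.8 against 3.24 to 5.87 FPKM), and *Cd8a* was at 0.315 to 0.574 against 0.0390 to 0.0858 FPKM. Of the other lineages, the summed B cell markers reached 2.82 to 4.44 FPKM in HDAC1cKO-HDAC2HET samples, where *Pax5* and *Ebf1* stayed under 0.1 FPKM, against 0.561 to 1.00 FPKM in WT samples. Most of the mutant sum was *Cd79b*, at 2.12 to 3.26 against 0.203 to 0.376 FPKM in WT samples. Dendritic cell markers summed to 2.13 to 2.94 against 0.550 to 1.04 FPKM in that experiment, with *Itgax* and *Flt3* under 0.1 FPKM in all 8 samples. This sum was almost all *Zbtb46*, at 2.13 to 2.90 against 0.550 to 1.03 FPKM. Natural killer and erythroid cell markers summed to at most 0.115 FPKM in all libraries, myeloid markers to at most 0.571 FPKM, and progenitor markers to at most 1.27 FPKM. In the first experiment *Xist*, which is expressed in female cells, was at 26.0 to 33.7 FPKM in HDAC1cKO-HDAC2HET and 58.9 to 65.2 FPKM in WT samples. The part of these differences in the results for the 9 genes was not tested, and in bulk RNA a smaller share of cells that express a gene cannot be told apart from less RNA per cell.

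Before the levels, the sequences just before the transcription start are shown for the gene that fell most (*Klf2*), the gene that rose (*Satb1*) and *Lef1*, to give the context of the genes whose levels moved in opposite directions. Each run is the 250 bases before the RefSeq start in build GRCm38.p6, 5′ to 3′ on the strand of the gene, at chr8:72318812-72319061 (+ strand) for *Klf2*, chr17:51833291-51833540 (- strand) for *Satb1* and chr3:131110073-131110322 (+ strand) for *Lef1*. The *Satb1* and *Lef1* runs lie outside the GENCODE gene, and the last 29 bases of the *Klf2* run lie within its annotated 5′ UTR. Capitals mark matches on either strand to the letters bound by the families of these 9 factors or their partners, which were CTTTGA (TCF/LEF), GTAAACA (FOXO), CCACCC (KLF), TGANTCA (AP-1 or BACH), AACNG (MYB) and CAGNTG (E proteins).
Klf2: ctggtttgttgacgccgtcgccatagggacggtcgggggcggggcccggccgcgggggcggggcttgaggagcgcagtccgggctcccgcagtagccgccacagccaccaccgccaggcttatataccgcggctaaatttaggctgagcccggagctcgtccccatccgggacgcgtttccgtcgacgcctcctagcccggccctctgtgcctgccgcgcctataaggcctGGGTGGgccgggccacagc
Satb1: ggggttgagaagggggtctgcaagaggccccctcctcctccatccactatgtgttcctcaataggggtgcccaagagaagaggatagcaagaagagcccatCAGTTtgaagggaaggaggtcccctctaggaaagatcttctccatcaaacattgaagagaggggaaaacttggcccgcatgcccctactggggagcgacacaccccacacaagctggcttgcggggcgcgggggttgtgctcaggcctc
Lef1: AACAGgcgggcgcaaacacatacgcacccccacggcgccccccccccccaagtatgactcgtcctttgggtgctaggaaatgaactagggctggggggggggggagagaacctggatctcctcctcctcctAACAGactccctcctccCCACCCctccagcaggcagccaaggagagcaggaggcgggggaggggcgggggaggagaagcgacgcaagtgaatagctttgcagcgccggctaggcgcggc

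CCACCC was found in the 250 bases before the RefSeq start of 5 of the 9 genes (*Lef1*, *Klf2*, *Myb*, *Id3* and *Bcl11b*) and in 28.1% of all 32536 promoters in the RefSeq table. AACNG was found in 7 of 9 genes and in 74.1% of all promoters, CTTTGA in 2 of 9 (*Bcl11b* and *Bach2*, whose window lies within the GENCODE gene, 178631 bases from its start) and in 13.9%, and CAGNTG in 1 of 9 (*Tcf7*) and in 44.8%. The *Tcf7* window (52283015 to 52283264) lay within the assembled *Tcf7* locus of WT day 3 replicate 1, which reached 52283326. An ATG just before its CAGNTG match opens a reading frame to the end of the window. The *Tcf7* matches may therefore be coding sequence and not promoter sequence. GTAAACA and TGANTCA had no match in the windows of the 9 genes, and were found in 3.17% and 6.73% of all promoters. The windows of *Klf2* and *Satb1* were unlike in base composition. The *Klf2* window had 29 CpG dinucleotides, 0.915 of the number its base content would give, and the *Satb1* window had 5, or 0.239, where the median of all promoters was 0.378. *Satb1* was the 1 gene of the 9 below that median in the windows used. *Satb1* has 5 windows in the RefSeq table, *Lef1* 4 and *Tcf7* 2, and only the window nearest the GENCODE start was examined. These matches are letters in a window and were not tested for binding.

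In the 4 WT samples at day 3, *Tcf7* and *Id3* had the highest levels of the 9 genes (means of 88.3 and 88.1 FPKM), followed by *Lef1* (69.6 FPKM) and *Satb1* (61.3 FPKM). *Bach2*, *Bcl11b* and *Myb* lay close together at 31.9, 30.2 and 28.2 FPKM, *Klf2* was at 21.0 FPKM, and *Foxo1* was lowest at 9.96 FPKM. *Tcf7* and *Id3* did not differ beyond their spread of 8.39 and 3.85 FPKM (SD, n = 4), nor did *Bcl11b* and *Myb* (SD of 1.80 and 4.19 FPKM). In HDAC1cKO-HDAC2HET samples the order was a different one, with *Satb1* first at 146 FPKM and *Klf2* last at 2.30 FPKM.

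**Figure D1:**
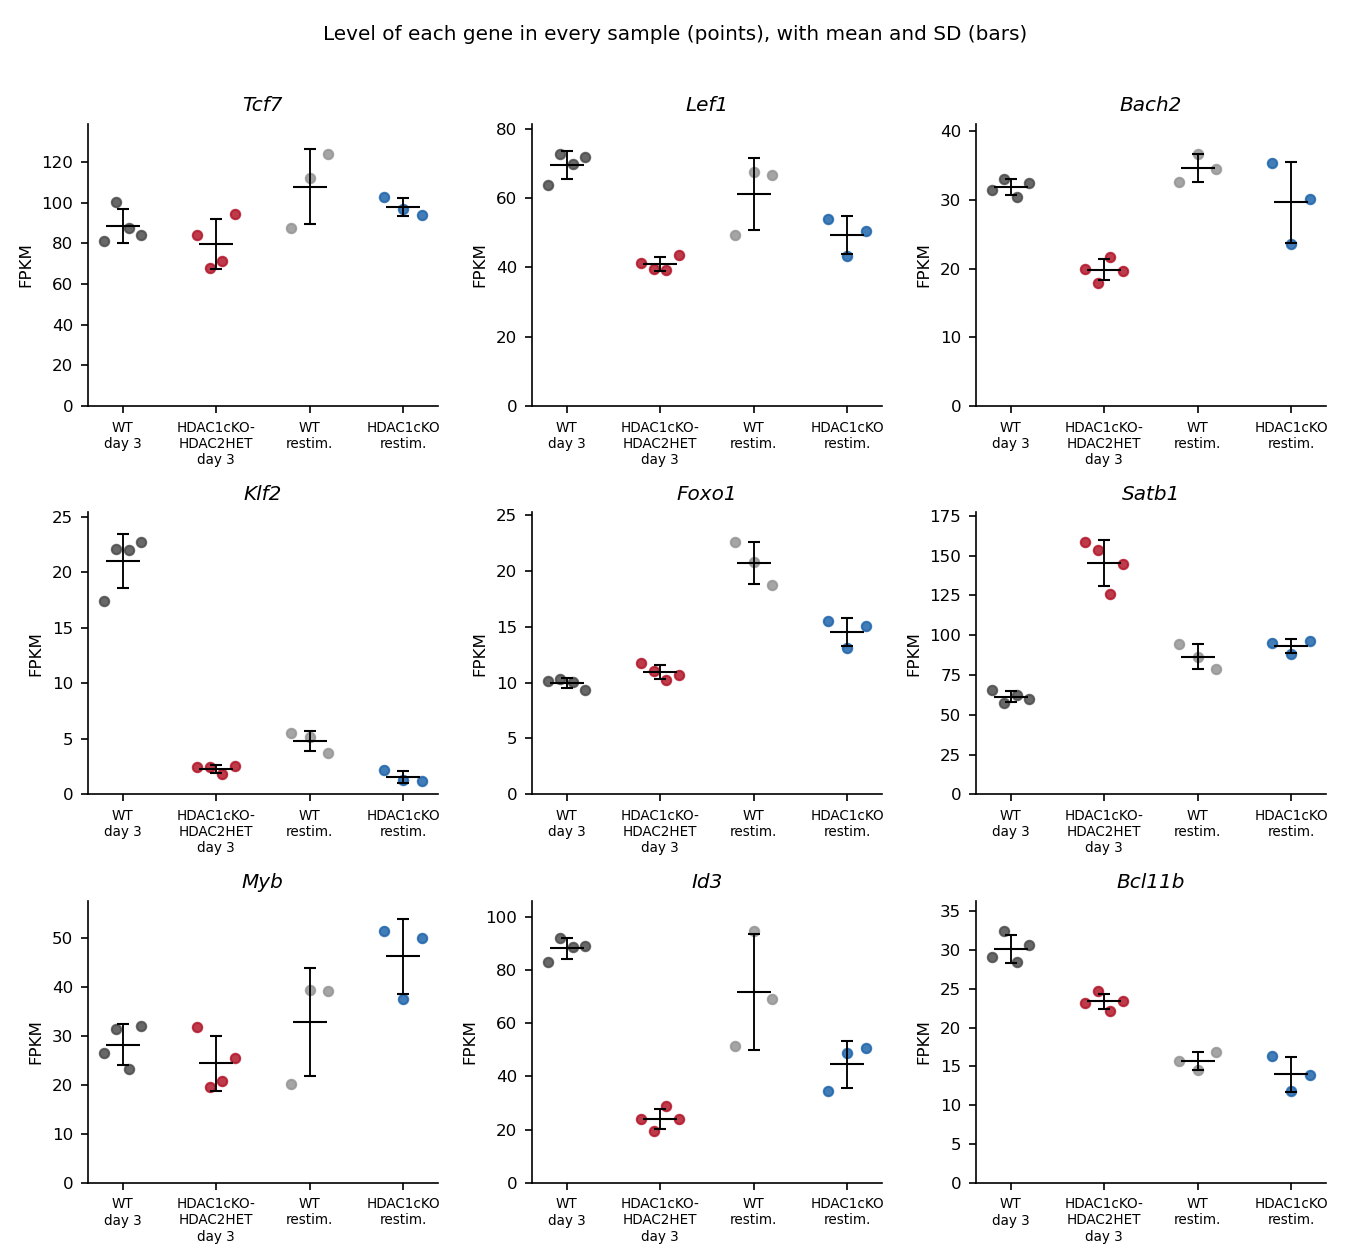
FPKM (vertical axis, linear and from 0) of each of the 9 genes in the 14 samples, with 1 panel per gene; points are samples in the order of their replicate numbers, the wide bar is the mean and the whiskers are the SD of 4 WT day 3, 4 HDAC1cKO-HDAC2HET day 3, 3 WT restimulated and 3 HDAC1cKO restimulated samples. *Klf2* and *Id3* are low and *Satb1* is high in all 4 HDAC1cKO-HDAC2HET samples, and *Tcf7* and *Myb* overlap between mutant and WT in both experiments.

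To address whether the loss of HDAC1 with a single remaining *Hdac2* allele goes along with a different level of these factors, HDAC1cKO-HDAC2HET and WT samples of day 3 were compared. *Klf2*, *Id3*, *Lef1*, *Bach2* and *Bcl11b* were lower and *Satb1* was higher in HDAC1cKO-HDAC2HET CD4+ T cells, whereas *Tcf7*, *Foxo1* and *Myb* did not pass the test (limma on log2(FPKM + 0.1), Benjamini-Hochberg adjusted p of at most 0.05 over 15166 genes). That is 6 of 9 genes called, where 51.8% of all genes tested were called in this comparison (24.2% higher and 27.6% lower), so the number of calls alone does not set these genes apart. With a fold change of at least 2 as well, 1 gene was higher and 2 were lower, where 5.58% and 5.56% of all genes were. The median log2 fold change of the 9 genes was -0.37, beside -0.05 for all genes tested. The 4 mutant and 4 WT samples did not overlap for any of the 6 genes called, and they did not overlap for 50.3% of all genes tested.

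*Klf2* (chromosome 8, 72319033 to 72321656) had the largest change. Its levels were 17.4, 22.0, 22.0 and 22.7 FPKM in the WT samples and 2.46, 2.42, 1.79 and 2.53 FPKM in the HDAC1cKO-HDAC2HET samples. All mutant samples thus lay far below the lowest WT sample. The mean was 2.30 ± 0.341 FPKM (SD, n = 4) against 21.0 ± 2.44 FPKM (SD, n = 4), a ratio of 0.109, and the log2 fold change was -3.14 (SE 0.13, adjusted p = 2.11e-06 by limma). The exact 2-sided permutation test gave p = 0.0286, the lowest value that groups of this size can give, for *Klf2* and for each of the other 5 genes called.

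*Id3* (chromosome 4, 136143497 to 136145755) was at 82.9, 92.1, 88.5 and 89.1 FPKM in WT and at 24.1, 19.3, 28.7 and 24.0 FPKM in HDAC1cKO-HDAC2HET samples. The WT samples were closely spaced, and every mutant sample was far below them. The log2 fold change was -1.88 (SE 0.11, adjusted p = 7.86e-06 by limma). *Id3* went from a level close to that of *Tcf7* to one close to that of *Bcl11b* and *Myb*.

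*Satb1* (chromosome 17, 51736187 to 51833290) moved the other way. It was at 65.4, 57.3, 62.5 and 60.0 FPKM in WT and at 158, 154, 126 and 145 FPKM in HDAC1cKO-HDAC2HET samples. The lowest mutant value, in replicate 3, was still well above the highest WT value. The log2 fold change was 1.24 (SE 0.08, adjusted p = 1.05e-05 by limma). In the annotation 6 genes overlap *Satb1*, 5 of them on its strand, and assembled loci there can share fragments.

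The HMG box factors *Lef1* and *Tcf7* differed in what was seen. *Lef1* (chromosome 3, 131110471 to 131224356) was at 63.9, 72.8, 69.9 and 71.8 FPKM in WT and at 41.3, 39.6, 39.2 and 43.7 FPKM in HDAC1cKO-HDAC2HET samples. No mutant sample reached the WT range, and the log2 fold change was -0.76 (SE 0.05, adjusted p = 1.61e-05 by limma). *Tcf7* (chromosome 11, 52252371 to 52283014) was at 81.1, 100.2, 87.7 and 84.1 FPKM in WT and at 84.2, 67.9, 71.2 and 94.5 FPKM in mutant samples. The groups overlapped, with 2 of the mutant samples inside the WT range and 2 below it, and the log2 fold change of -0.16 had a 95% confidence interval from -0.43 to 0.11 (limma adjusted p = 0.295). The FPKM are summed over isoforms, so that long TCF1 forms, which can bind β-catenin, and short forms, which cannot, are not separated.

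*Bach2* (chromosome 4, 32238804 to 32586108) was at 31.5, 33.1, 30.5 and 32.4 FPKM in WT and at 20.0, 17.9, 21.7 and 19.7 FPKM in HDAC1cKO-HDAC2HET samples. The log2 fold change was -0.69 (SE 0.06, adjusted p = 4.56e-05 by limma). *Bcl11b* (chromosome 12, 107910403 to 108003602) was at 29.1, 32.5, 28.5 and 30.7 FPKM in WT and at 23.2, 24.7, 22.2 and 23.4 FPKM in mutant samples. Its log2 fold change of -0.37 (SE 0.05, adjusted p = 5.68e-04 by limma) was the smallest of the 6 genes called, and its groups, though apart, were close to each other.

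*Foxo1* (chromosome 3, 52268336 to 52353221) and *Myb* (chromosome 10, 21124935 to 21160984) were not called. *Foxo1* was at 10.1, 10.3, 10.1 and 9.36 FPKM in WT and at 11.8, 11.0, 10.2 and 10.7 FPKM in HDAC1cKO-HDAC2HET samples. In 3 of 4 mutant samples it was above all WT samples. The log2 fold change of 0.13 had a 95% confidence interval from 0.01 to 0.25 (limma adjusted p = 0.0683), and this gene passed the threshold with the log2 values centred on their median (limma adjusted p = 0.0405), with quantile normalisation (0.00856), with sample weights (0.0403) and without HDAC1cKO-HDAC2HET replicate 3 (0.0362). *Myb* was at 26.4, 31.4, 23.1 and 31.9 FPKM in WT and at 31.7, 19.4, 20.7 and 25.5 FPKM in mutant samples. Mutant replicates 2 and 3 lay below the WT range and the others within it, and the log2 fold change of -0.23 had a 95% confidence interval from -0.63 to 0.18 (limma adjusted p = 0.321).

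**Figure D2:**
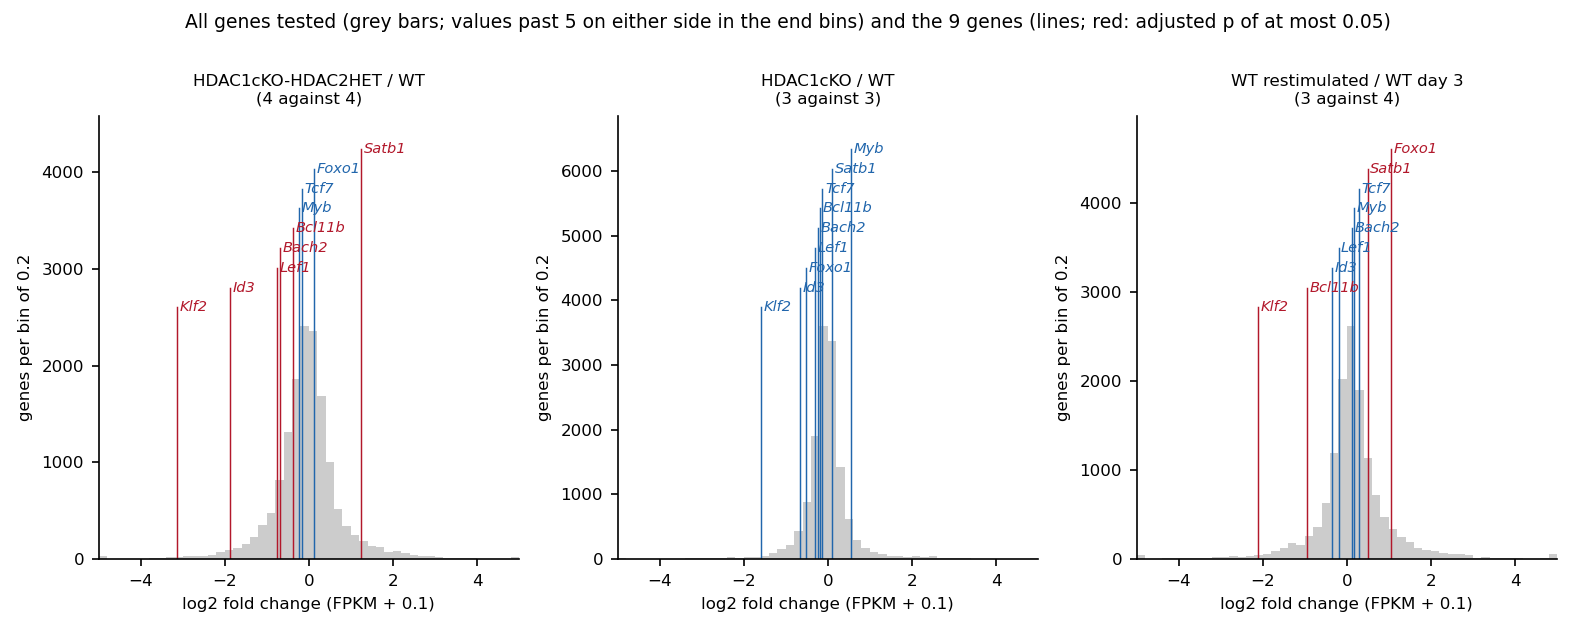
Number of genes per bin of log2 fold change (grey bars, bins of 0.2, values past 5 on either side in the end bins) among all genes tested in the 3 comparisons, with a vertical line for each of the 9 genes, red where the adjusted p was at most 0.05. In the left panel *Klf2* at -3.14 and *Id3* at -1.88 lie in the lower tail and *Satb1* at 1.24 in the upper tail, and the other 6 genes lie within the bulk of the distribution.

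Genes of the same families and pathways were described with lists of names, as counts beside the shares of all genes given above. Of 15 close relatives of the 9 factors, 12 were expressed enough to be tested in HDAC1cKO-HDAC2HET against WT samples, 5 were higher and 6 were lower. The higher ones were *Klf4* (log2 fold change 1.47), *Foxo4* (1.25), *Tcf7l1* (0.77), *Mybl2* (0.73) and *Klf6* (0.63). The lower ones ranged from -0.28 to -2.99 and included both relatives of *Id3* in the list, which are singled out here after their values were seen. *Id1* was at 3.39 to 4.73 FPKM in WT and at 0.203 to 0.697 FPKM in mutant samples, and *Id2* was at 61.2 to 84.7 against 11.5 to 25.1 FPKM. The log2 fold changes were -2.99 for *Id1* (limma adjusted p = 1.19e-04) and -2.07 for *Id2* (limma adjusted p = 3.73e-04), so that all 3 ID genes examined were lower. Their E protein partners moved less and in both directions, with *Tcf3* (E2A) at a log2 fold change of 0.46 and *Tcf12* (HEB) at -0.43, while *Tcf4* (E2-2) did not pass the test (limma adjusted p = 0.582). Within the KLF family, *Klf2* and *Klf3* were lower and *Klf4* and *Klf6* were higher, and within the FOXO family *Foxo3* was lower (-0.67) and *Foxo4* was higher.

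Of textbook target genes of FOXO1 and KLF2, *Il7r* and *Ccr7* were higher and *S1pr1* was lower. *S1pr1*, the egress receptor that KLF2 is known to drive, was at 2.96, 4.27, 4.01 and 4.51 FPKM in WT and at 1.84, 1.84, 1.19 and 1.57 FPKM in HDAC1cKO-HDAC2HET samples, a log2 fold change of -1.24 (SE 0.18, adjusted p = 6.20e-04 by limma). It thus went in the same direction as *Klf2*. *Il7r*, the receptor of the survival cytokine IL-7, was at 2.15, 3.26, 1.99 and 2.05 FPKM in WT and at 21.9, 20.4, 16.5 and 20.0 FPKM in mutant samples. This was a log2 fold change of 3.03 (SE 0.16, adjusted p = 6.01e-06 by limma), and the largest rise of all genes in the 6 lists. *Ccr7*, the chemokine receptor for entry into lymph nodes, rose by 0.71 on the log2 scale (from 341 to 553 FPKM in the mean). The lower *Klf2* thus stood beside a higher *Il7r* and *Ccr7* in the same samples.

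Among 10 other genes known to uphold quiescence, 7 were lower, 1 was higher and 2 did not pass the test, with a median log2 fold change of -0.46. The lower ones ranged from -0.16 to -1.10. *Cdkn1b*, which encodes the cell cycle inhibitor p27, was lower by a log2 fold change of -1.10 (10.6 against 22.6 FPKM), and *Btg1*, an antiproliferative factor that promotes mRNA deadenylation, by -1.06 (37.8 against 78.8 FPKM). The higher one was *Tsc2*, at 0.43, whereas its partner *Tsc1* in the complex that restrains mTORC1 was lower, at -0.53. Of 10 genes for TCF/LEF cofactors and Wnt target genes, 8 were tested, 3 were higher (*Nkd1*, 1.24; *Jup*, 0.83; *Tle4*, 0.25) and 4 were lower (*Axin2*, -1.31; *Tle1*, -0.80; *Tle3*, -0.71; *Ctbp1*, -0.16). *Ctnnb1* (β-catenin) was at a mean of 103 FPKM in mutant and 102 FPKM in WT samples. The small MAF partners of BACH2 were called as well, *Mafk* (0.54) and *Mafg* (0.21) as higher and *Maff* (-0.78) as lower.

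**Figure D3:**
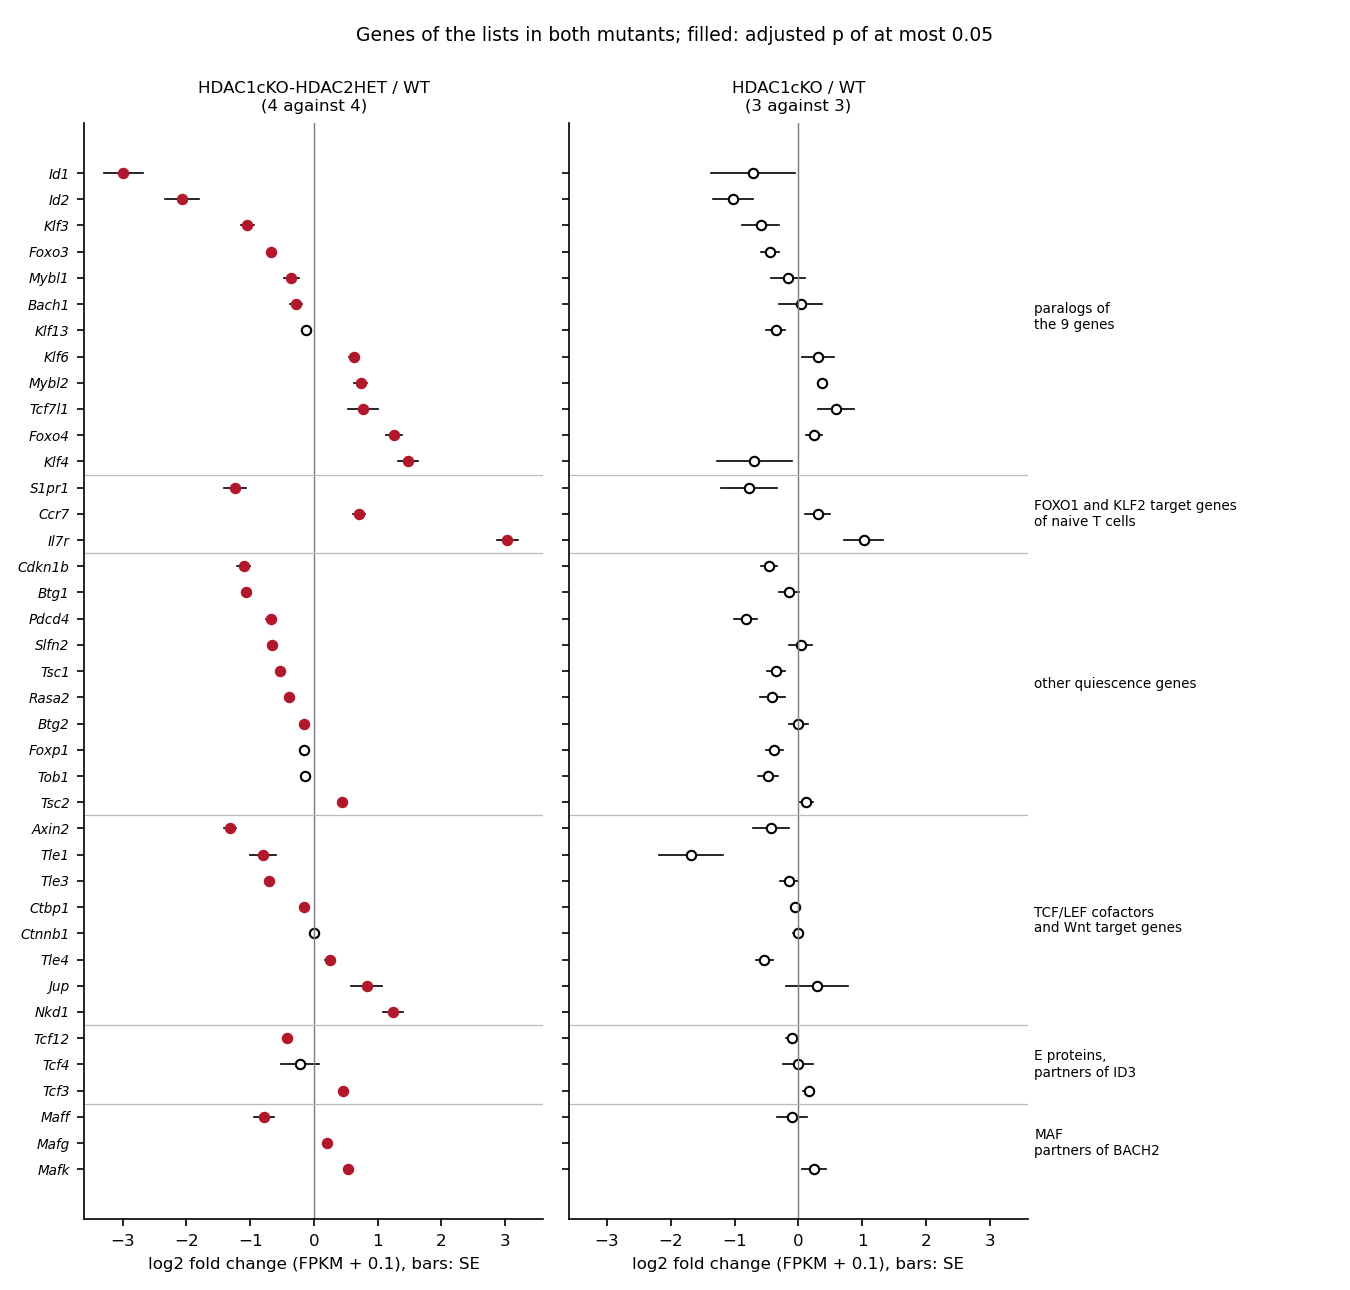
Log2 fold change (horizontal axis) with its standard error for the tested genes of the 6 lists, HDAC1cKO-HDAC2HET against WT on the left and HDAC1cKO against WT on the right; filled points had an adjusted p of at most 0.05. On the left *Il7r* at 3.03 and *Id1* at -2.99 are the extremes, and on the right no gene passed the threshold.

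To see whether deletion of *Hdac1* alone went along with such differences, HDAC1cKO samples were compared with the WT samples of the same restimulated cultures. None of the 9 genes was called by limma, where 13 of 14045 genes or 0.0926% were called and 1998 genes had an unadjusted p under 0.05. Of the 9 genes 3 had an unadjusted p under 0.05 (*Klf2*, *Foxo1* and *Id3*), and these were also the 3 genes whose groups did not overlap, each with an exact 2-sided permutation p of 0.1, the smallest that 3 samples against 3 allow. Of all genes tested 22.2% had groups without overlap. The design could therefore not pass 0.05 by that test. Expression of *Xist* was under 1 FPKM in WT replicate 2 and in all 3 HDAC1cKO samples. It was at 33.2 and 42.9 FPKM in the other 2 WT samples, so that sex, as read from *Xist* alone, differed between the groups. A fit with sex as a covariate rests on 1 WT sample against 3 HDAC1cKO samples and says little about the 9 genes, of which it called none.

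*Klf2* was at 5.52, 5.13 and 3.76 FPKM in WT and at 2.23, 1.29 and 1.21 FPKM in HDAC1cKO samples. Both groups were low and did not overlap, and the log2 fold change of -1.58 had a 95% confidence interval from -2.26 to -0.90 (limma adjusted p = 0.149). *Foxo1* was at 22.5, 20.8 and 18.7 FPKM in WT and at 15.5, 13.1 and 15.0 FPKM in HDAC1cKO samples, a log2 fold change of -0.51 with an interval from -0.77 to -0.24 (limma adjusted p = 0.186). *Id3* was at 51.3, 94.7 and 69.0 FPKM in WT and at 34.4, 48.7 and 50.6 FPKM in HDAC1cKO samples, a log2 fold change of -0.66 with an interval from -1.29 to -0.03 (limma adjusted p = 0.339). The highest mutant sample of *Id3* lay just below the lowest WT sample, replicate 1. With all 14 samples in 1 fit, which shares the spread over both experiments, *Klf2* (limma adjusted p = 0.00177) and *Foxo1* (0.00449) were called as lower. That fit called 1370 of 13329 genes, 641 as higher and 729 as lower, where the fit of this experiment alone called 13 of 14045.

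The other 6 genes overlapped between HDAC1cKO and WT samples. *Lef1* was at 49.2, 67.6 and 66.8 FPKM in WT and at 54.0, 43.4 and 50.6 FPKM in HDAC1cKO samples, and *Bach2* at 32.6, 36.7 and 34.5 against 35.3, 23.6 and 30.1 FPKM. *Satb1* was at 94.7, 86.4 and 78.6 FPKM in WT and at 95.0, 88.0 and 96.1 FPKM in HDAC1cKO samples, and its log2 fold change of 0.11 had an interval from -0.11 to 0.33 (limma adjusted p = 0.611). A rise as large as in HDAC1cKO-HDAC2HET samples lay outside that interval. *Myb* was at 20.2, 39.2 and 39.1 FPKM in WT and at 51.4, 37.4 and 49.8 FPKM in HDAC1cKO samples, and its interval was wide, from -0.17 to 1.25. *Tcf7* was at 87.6, 112 and 124 FPKM in WT and at 102.7, 96.6 and 94.0 FPKM in HDAC1cKO samples, and *Bcl11b* at 15.7, 14.5 and 16.9 against 16.3, 11.8 and 13.8 FPKM. WT replicate 1 was the lowest of its group for 5 of the 9 genes (*Bach2*, *Id3*, *Lef1*, *Myb* and *Tcf7*) and the highest for 3 (*Foxo1*, *Klf2* and *Satb1*), and HDAC1cKO replicate 2 was the lowest of its group for 6.

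No gene of the 6 lists was called in HDAC1cKO against WT samples. *Il7r* was at 5.19, 2.21 and 3.46 FPKM in WT and at 7.80, 6.35 and 7.09 FPKM in HDAC1cKO samples (log2 fold change 1.02, limma adjusted p = 0.249), and *Id2* at 69.3, 30.5 and 34.7 against 22.9, 20.1 and 18.7 FPKM (log2 fold change -1.03, limma adjusted p = 0.255). Both groups were apart for these 2 genes. *S1pr1* was at 11.0, 3.98 and 3.62 FPKM in WT and at 3.58, 2.51 and 3.43 FPKM in HDAC1cKO samples. WT replicate 1 stood far above the mutant samples, and the other 2 WT samples lay just above them.

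The fold changes of the 2 mutants were then compared with each other, in a contrast of mutant minus WT in the first experiment less mutant minus WT in the second over all 14 samples. Genotype, culture and experiment differ together in this contrast and cannot be told apart. Of the 9 genes 4 were called, 2 in each direction, where 14.6% of 13504 genes were called (7.69% higher and 6.91% lower). *Satb1* had the clearest difference of log2 fold changes, at 1.14 (SE 0.12, adjusted p = 1.61e-04 by limma), and it rose in HDAC1cKO-HDAC2HET samples (1.24) beside 0.11 in HDAC1cKO samples. *Foxo1* differed by 0.64 (SE 0.11, adjusted p = 0.00272 by limma), with log2 fold changes of 0.13 and -0.51. *Klf2* differed by -1.56 (SE 0.29, adjusted p = 0.00437 by limma) and *Id3* by -1.22 (SE 0.27, adjusted p = 0.0120 by limma), with the larger fall in HDAC1cKO-HDAC2HET samples for both.

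For the other 5 genes a difference between the mutants was not shown. *Lef1* differed by -0.46 (limma adjusted p = 0.0640) and *Bach2* by -0.45 (limma adjusted p = 0.0771), and both were called without HDAC1cKO replicate 2 (-0.55 and -0.60). *Myb* differed by -0.77 with a 95% confidence interval from -1.52 to -0.02 (limma adjusted p = 0.166), *Bcl11b* by -0.19 and *Tcf7* by -0.03. In the lists, *Klf4* (2.16), *Foxo4* (1.01), *Il7r* (2.01), *Nkd1* (1.26), *Tle4* (0.78) and *Tcf3* (0.30) had higher and *Btg1* (-0.91), *Slfn2* (-0.69), *Cdkn1b* (-0.64), *Tle3* (-0.56) and *Tcf12* (-0.32) had lower fold changes in HDAC1cKO-HDAC2HET than in HDAC1cKO samples. *Klf4* rose in HDAC1cKO-HDAC2HET samples from 2.75 to 7.74 FPKM in the mean, and its level in the WT samples of the other experiment varied from 7.24 to 32.5 FPKM.

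**Figure D4:**
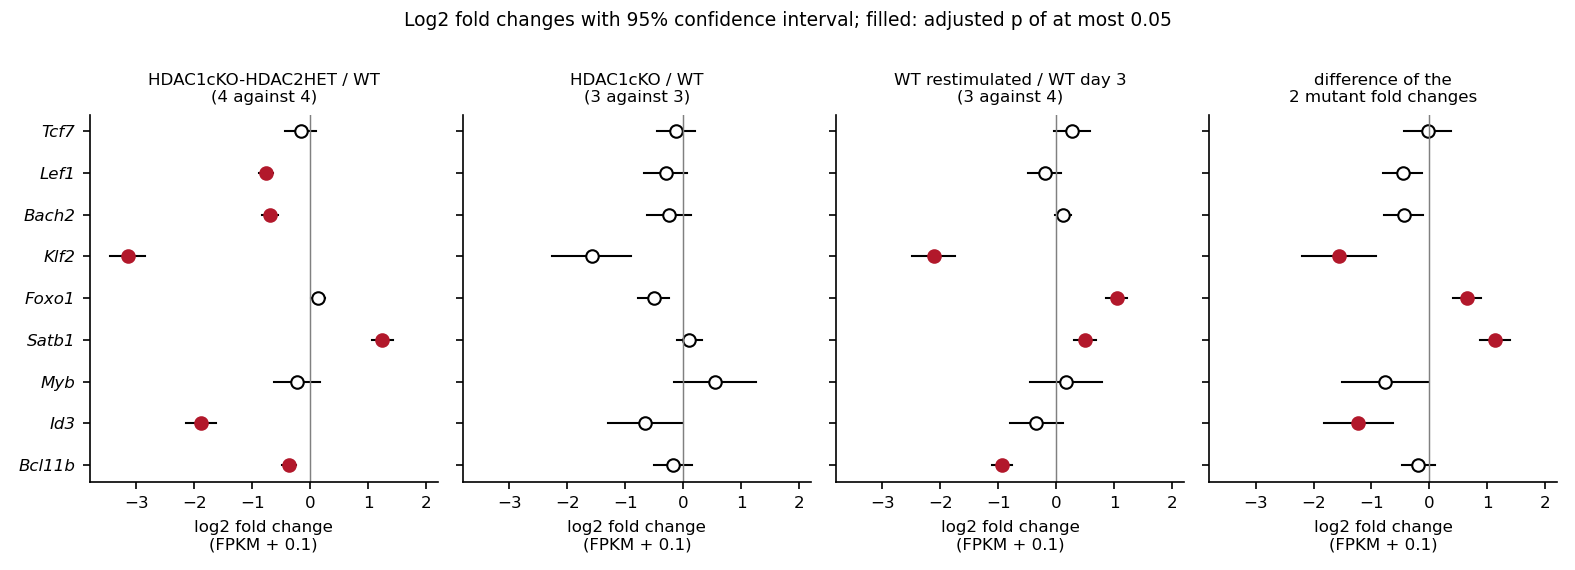
Log2 fold change (horizontal axis) with its 95% confidence interval for each of the 9 genes in the 3 comparisons, and the difference of the 2 mutant fold changes in the panel on the right; filled points had an adjusted p of at most 0.05. *Klf2*, *Foxo1*, *Satb1* and *Id3* are filled on the right, and *Tcf7* and *Myb* are open in all 4 panels.

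Finally, the WT samples of the 2 cultures were compared, 3 restimulated against 4 at day 3. Restimulation and experiment cannot be told apart here. The 2 experiments also differed in how many genes were listed by name, 36661 to 37453 in the day 3 and 24401 to 25115 in the restimulated WT libraries. The part of this in the differences between the cultures was not tested. Among the 9 genes the assembled loci were unlike for 2. The *Id3* locus was 1897 bases long in the files of the first and 2259 bases in those of the second experiment, and the *Foxo1* locus 84887 and 81774 bases. *Foxo1* (log2 fold change 1.04, limma adjusted p = 1.34e-04) and *Satb1* (0.49, limma adjusted p = 0.00351) were higher and *Klf2* (-2.12, limma adjusted p = 1.42e-04) and *Bcl11b* (-0.94, limma adjusted p = 1.68e-04) were lower in the restimulated samples. That is 4 of 9 genes, where 33.1% of 13638 genes were called (22.1% higher and 11.1% lower) and the median of all genes was at 0.11. Centring the log2 values on their median gave 2240 higher and 2089 lower genes in place of 3009 and 1511, and quantile normalisation 1929 and 2385, with the same 4 calls among the 9 genes. The groups did not overlap for these 4 genes, with an exact permutation p of 0.0571 for each, the smallest that 4 samples against 3 allow, and 43.4% of all genes tested had groups without overlap.

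*Klf2* was at 3.76 to 5.52 FPKM in the restimulated and 17.4 to 22.7 FPKM in the day 3 WT samples, and *Foxo1* at 18.7 to 22.5 against 9.36 to 10.3 FPKM. The values of the factor and its known target gene thus went in opposite directions between the cultures. The *Foxo1* locus, however, ended at 52350109 in the restimulated and at 52353221 in the day 3 samples. FPKM depend on the transcript length used, and the part of this unlike 3′ end in the *Foxo1* difference was not tested. *Bcl11b* was at 14.5 to 16.9 FPKM in the restimulated and 28.5 to 32.5 FPKM in the day 3 samples. The other 5 genes, *Tcf7*, *Lef1*, *Bach2*, *Myb* and *Id3*, had log2 fold changes from -0.34 to 0.28 and were not called. Without restimulated WT replicate 1, *Tcf7* (0.42), *Bach2* (0.16) and *Myb* (0.48) were called as higher. Among all genes 3730 of 13527 were then called as higher, in place of 3009 of 13638. Among the target genes, *Ccr7* was higher (log2 fold change 1.21) in the restimulated samples, while *Il7r* and *S1pr1* were not called (limma adjusted p of 0.222 and 0.397).

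Across the 4 groups the order of the levels was not the same for any 2 of *Klf2*, *Foxo1*, *Satb1* and *Bcl11b*. *Klf2* was highest in WT at day 3, followed by WT restimulated, HDAC1cKO-HDAC2HET and HDAC1cKO samples, and the last 2 groups (1.79 to 2.53 and 1.21 to 2.23 FPKM) overlapped. *Satb1* was highest in HDAC1cKO-HDAC2HET samples, the HDAC1cKO and WT restimulated samples overlapped, and WT at day 3 was lowest. *Lef1* and *Id3* shared an order, with WT at day 3 first, then WT restimulated, HDAC1cKO and HDAC1cKO-HDAC2HET samples. Over the 14 samples *Lef1* and *Id3* had a Pearson r of 0.917 on the log2 scale, *Satb1* and *Id3* of -0.94, and *Foxo1* and *Bcl11b* of -0.773, whereas *Tcf7* and *Klf2* were at 0.00. These are descriptions over samples that share 4 group means, 2 experiments and the scaling of each library.

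By the same measure, the protein-coding gene most like each of the 9, among 9237 genes with a mean of at least 1 FPKM, was *Mdm4* for *Bach2* (r = 0.985), *Mbtd1* for *Klf2* (0.982), *Ralgps2* for *Bcl11b* (0.982), *Dock5* for *Satb1* (0.979), *Mphosph9* for *Lef1* (0.978), *Pdlim2* for *Id3* (0.978), *Kctd12* for *Foxo1* (0.961), *Rnf115* for *Tcf7* (0.922) and *Ulk3* for *Myb* (0.911). *Tcf7* and *Myb*, the genes without a call in any comparison, had the lowest values.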

How the data were processed

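The authors mapped each library of the stranded mRNA kit with TopHat to mm10 and made the deposited FPKM values and confidence bounds with Cufflinks. The submitters' processing notes also name STAR, Subread and edgeR, and whether these bear on the files used is not given there. FPKM take account of library size and transcript length, and counts were not used. Genes listed by name were taken as such, with several rows of a name summed. A locus without a name was taken as a gene where it shared at least 0.8 of the joint span with the GENCODE vM21 gene (GRCm38). *Tcf7*, *Lef1*, *Bach2*, *Satb1* and *Bcl11b* were matched by position in all 14 libraries, and *Klf2*, *Foxo1*, *Myb* and *Id3* in 4, 1, 13 and 7 of them. Whether Cufflinks used strand is not given in the sources used here, so fragments of overlapping genes (which *Tcf7*, *Lef1*, *Bach2*, *Foxo1*, *Satb1* and *Myb* have) may be shared.

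Values entered limma (version 3.58.1, R version 4.3.3) as log2(FPKM + 0.1), with a variance trend. A gene was tested if its FPKM averaged 0.1 or more, and p-values were adjusted by Benjamini-Hochberg over all genes tested. The pseudocount understates fold changes of low genes. Calls had an adjusted p of at most 0.05. Standard errors (SE) and 95% confidence intervals are those of limma, and exact permutation tests were 2-sided. The depth was estimated from the bounds of low genes, of which 74.9% to 81.1% gave a whole fragment number within 0.05, so the estimates are rough. The scripts were tested on simulated data.

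Groups come from the labels. The labels do not say which animals the samples came from, and the study speaks of 4 independent batches per genotype for the first experiment, so p-values measure the spread between these samples. The 9 genes and all lists were chosen with earlier results of these data known, and 1 gene of the target gene list is not reported here. Named were the 9 genes, genes of the lists past the threshold where 5 or fewer (others singled out are named as examples, after their values were seen), and the gene most alike by Pearson r. Promoters are from RefSeq (GRCm38.p6; 9 of 9 genes matched, the window nearest the GENCODE start for genes with several), and the *Id3* window is not printed as it lies in an annotated UTR. Alternatives changed the pseudocount, filter, scaling, variance model, weights, locus matching, replicate block, sex covariate, joint fit and each sample in turn. Tables used pandas 2.3.3 and numpy 2.4.6, and plots matplotlib 3.10.9.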

Additional observations from a re-analysis of the deposited data

Results flagged for a closer look

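The fold changes of the 2 mutants differed by the contrast over all 14 samples for 4 of the 9 genes, by -1.56 for *Klf2*, 0.64 for *Foxo1*, 1.14 for *Satb1* and -1.22 for *Id3* on the log2 scale. Genotype, culture and experiment differ together in it.

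In 18 groups of 4 samples (9 genes in 2 groups), 2 had a sample that stood apart by Dixon's criterion, and chance gives about 1 in 20. Both were the lowest sample of *Klf2*, WT day 3 replicate 1 at 17.4 FPKM and HDAC1cKO-HDAC2HET replicate 3 at 1.79 FPKM. Without either sample *Klf2* was still called as lower.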

How the results depend on the processing

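Of 819 values of the 9 genes under other settings, 798 kept their direction and side of the threshold, 15 passed it where the main value did not, none lost a call, and 6 reversed. The reversed ones were all of the *Tcf7* difference between the mutants (-0.03), which was 0.086 with sample weights and ranged from -0.14 to 0.11 with each sample left out (above 0 for 5 of them). In HDAC1cKO-HDAC2HET against WT samples, 2 genes in place of 1 were higher with median centring, with quantile normalisation and with sample weights, and 1 to 2 with each sample left out, the added gene being *Foxo1*. In HDAC1cKO against WT samples, the genes called among all went from 13 to 27 with a mean FPKM of at least 1, 8 without the variance trend, 31 with sample weights, 76 with the sex covariate (1 WT sample against 3 mutant samples), 1370 with all 14 samples in 1 fit and 11 to 57 with each sample left out. The joint fit called 2 of the 9 genes as lower in place of 0. Leaving out each sample moved the genes called as higher between the WT cultures from 2 to a range of 2 to 5 (5 without restimulated WT replicate 1), and those lower there to 2 to 3 (*Id3* without restimulated WT replicate 2, log2 fold change -0.57). It moved the genes with a lower difference of fold changes from 2 to a range of 2 to 4 (4 without HDAC1cKO replicate 2, with *Lef1* and *Bach2*), and *Lef1* was also called there without restimulated WT replicate 2 (-0.54) or 3 (-0.53). All genes called between the WT cultures went from 4520 to 517 when only genes listed by name in every WT sample were tested, where none of the 9 genes was among those tested. All genes called for the difference went from 1971 to 1118 when each experiment kept its own spread. The cause of these shifts was not tested.

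The replicate number as a block moved the genes called from 13 to 5 in HDAC1cKO against WT samples and from 1971 to 1299 for the difference, and changed no call among the 9 genes. Same-numbered samples had correlations of their deviations from the group means from -0.0158 to 0.0619, and not every sample correlated best with its own number. A sex covariate could not be estimated in the HDAC1cKO-HDAC2HET experiment, where *Xist* was above 1 FPKM in all 8 samples. It was at 58.9 to 65.2 FPKM in WT and 26.0 to 33.7 FPKM in HDAC1cKO-HDAC2HET samples, without overlap. The study used mice of both sexes, and whether the mix of sexes differed between these groups was not tested. Depth is known only as an estimate. The deposited confidence bounds of the lowest *Klf2* value of that experiment (1.79 FPKM) were 1.16 and 2.42 FPKM.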
